A study of Mus musculus with 8 samples.

Results

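The platelet-derived growth factor (PDGF) family was examined in primary mouse osteoblast cultures given parathyroid hormone (PTH) or vehicle. Its members were taken by gene symbol as the genes that encode the ligands (Pdgfa, Pdgfb, Pdgfc and Pdgfd) and the receptors (Pdgfra and Pdgfrb). They fill 6 of the 47704 rows with a symbol in the table. This rule uses no measured value, although the family itself was picked with earlier results of these data known. Each member symbol had 1 entry, and all 6 passed the filter on low counts. Identifiers and positions are those of GENCODE M21. RNA sequencing of polyadenylated RNA was done on 8 samples of calvarial osteoblasts, the bone-forming cells of the skull vault, isolated from newborn mice. After 7 days of differentiation the cultures were kept in low serum and then received PTH (1–34), the amino-terminal fragment used as a bone anabolic drug, in 4 samples, or the saline vehicle in the other 4, for 24 hours. All 8 sample names carry the tag "Con", which the labels do not explain, and the labels call the differentiation adipogenic whereas the methods of the study describe an osteogenic medium. No genotype or strain is given for these samples, and neither is whether the samples of a group came from separate isolations, so p-values measure only the spread between these samples, which may be technical.

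PDGFs are secreted dimers that bind a pair of receptor tyrosine kinases. PDGF-A and PDGF-B are cut inside the cell by proprotein convertases, whereas PDGF-C and PDGF-D are secreted with a CUB domain that proteases such as plasminogen activators must remove before the factor can bind. The alpha receptor binds the A, B and C chains and the beta receptor binds the B and D chains, and both relay to phosphatidylinositol 3-kinase, phospholipase C gamma, Src kinases and the Ras-MAP kinase cascade. In bone the receptors are found on mesenchymal progenitors and cells of the osteoblast lineage, and PDGF is known there as a mitogen and a chemoattractant.

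Pdgfa and Pdgfc were the ligand transcripts that fell with PTH, by nearly the same amount. A stretch before an annotated start of each is therefore shown. RefSeq windows of the 250 bases before an annotated start (GRCm38.p6) were matched for 4 of the 6 members, 5 windows in all, of which Pdgfa had 2. The Pdgfa stretch is chr5:138995038-138995194 (minus strand). It leaves out the last 93 bases of its window because another annotated Pdgfa transcript has an exon there. It lies inside the annotated span of the gene (chr5:138976014-138997370), before an internal start and not upstream of the whole gene. The Pdgfc stretch is chr3:81036166-81036415 (plus strand) and ends just before the gene. Both are written 5′ to 3′, with capitals marking a CRE half-site (TGACG, the letters of the core of a cAMP response element) in Pdgfa and a CArG box (the serum response element core) in Pdgfc.
Pdgfa: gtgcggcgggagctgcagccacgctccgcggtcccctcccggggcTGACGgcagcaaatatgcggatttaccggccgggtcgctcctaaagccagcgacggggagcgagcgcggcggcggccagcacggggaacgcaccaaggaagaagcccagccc
Pdgfc: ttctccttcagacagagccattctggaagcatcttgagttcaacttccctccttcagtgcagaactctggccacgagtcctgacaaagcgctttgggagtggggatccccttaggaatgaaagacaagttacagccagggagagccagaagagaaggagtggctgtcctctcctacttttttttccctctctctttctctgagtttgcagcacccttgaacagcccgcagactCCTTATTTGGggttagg
The searched letters, on both strands, were TGACG, the GC box GGGCGG, the box CCAAT, the TATA box TATAAA, the AP-1 site TGANTCA and the CArG box, and no 2 of these matches overlapped in a member's window. Of 32851 RefSeq windows of the same length, TGACG was present in 17.8%, GGGCGG in 32.7%, CCAAT in 33.8%, TATAAA in 12.4%, TGANTCA in 6.75% and the CArG box in 1.47%. The whole Pdgfa window was 72.4% G and C with 28 CpG dinucleotides, and held 1 match of TGACG, at position -205 from the start, and 2 of the GC box, at -93 and -86. The Pdgfc window was 50.8% G and C with 3 CpG dinucleotides, close to the median of 52.4% G and C over all windows, and its CArG box began at position -17. Of the windows not shown, that of Pdgfra held TGACG on the other strand at -218, that of Pdgfd held TATAAA at -160, and the other Pdgfa window held a GC box at -60. That other Pdgfa window held no TGACG, so the match belongs to 1 of the 2 Pdgfa windows and not to both. These matches are descriptions of letters and not of bound sites.

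Total counts were 33605610 to 56090654 in the PTH samples and 41618108 to 46757836 in the vehicle samples. The labels were checked on the transcript of the RANK ligand gene Tnfsf11, which PTH is known to induce in osteoblasts. It rose from 1.42 ± 0.365 to 128 ± 20.0 counts per 1e6 of the TMM-scaled library size (CPM; mean ± SD, n = 4 per group), and the transcript of the PTH receptor gene Pth1r fell from 136 ± 21.1 to 83.6 ± 11.6 CPM (edgeR adjusted p = 4.42e-04). Of 16734 genes tested, 3907 rose and 3761 fell with PTH (adjusted p under 0.05), which is 23.3% and 22.5%, or 45.8% in all. All 10 osteoblast markers, among them the collagen genes, Bglap and Ibsp, were detected in every sample, whereas 5 of 8 endothelial markers stayed under 1 CPM in every sample. All 10 macrophage markers were detected in every sample too, so detection alone does not set the osteoblast list apart.

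With PTH for 24 hours, the Pdgfrb transcript fell by 55.9%, Pdgfa fell by 25.2%, Pdgfc fell by 25.9%, and no PDGF transcript rose past the threshold. The fall of Pdgfa is subject to a limit from an antisense gene, given below. By count, 3 of the 6 members fell (Pdgfa, Pdgfc and Pdgfrb), against 22.5% of all tested genes, and 0 rose, against 23.3%. DESeq2 gave the same counts of 3 and 0, and at an unadjusted p under 0.05 in edgeR 1 member (Pdgfra) was higher. The groups did not overlap for 4 members, against 43.0% of all tested genes, and for 3 of these PTH was the lower group, against 21.8%. Taking both directions together, 3 of 6 members were called against 45.8% of all tested genes, so the number called is not in itself a result about the family. The exact permutation test of a single gene has a smallest two-sided p of 0.0286 with 4 samples against 4.

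**Figure D1:**
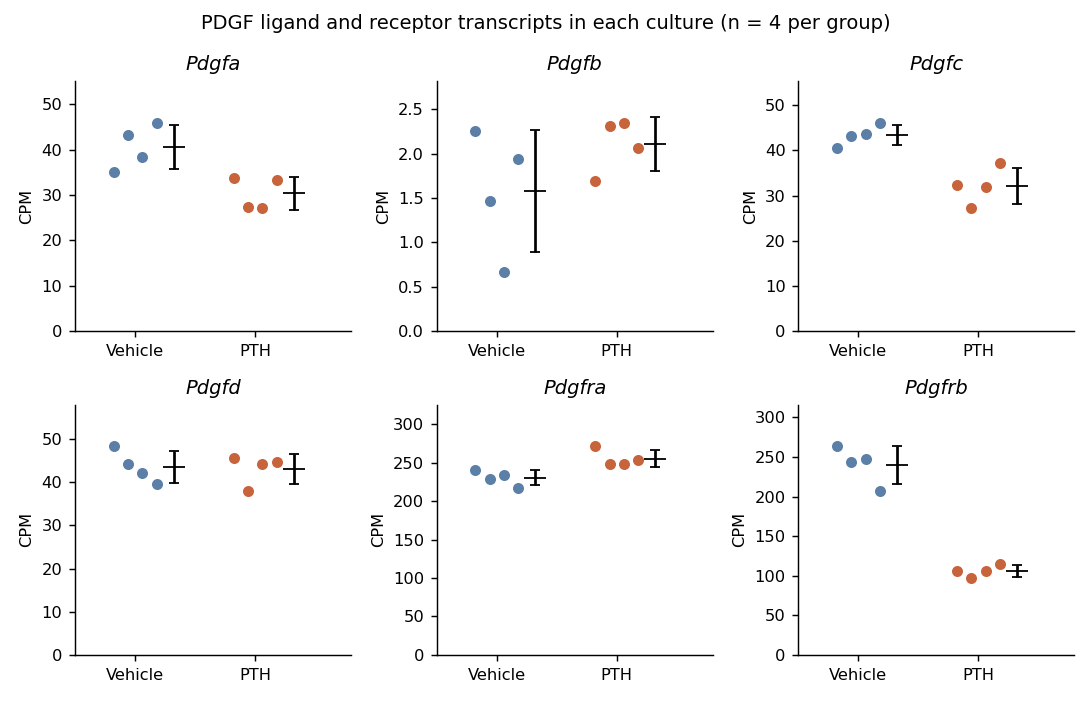
Level of each PDGF ligand and receptor transcript in CPM (vertical axes start at 0) in the 4 vehicle samples (blue) and the 4 PTH samples (orange), with the mean and SD as black bars. The groups are apart for Pdgfa, Pdgfc, Pdgfra and Pdgfrb, and the gap is widest for Pdgfrb, at 106 ± 7.00 CPM with PTH against 240 ± 23.9 CPM with vehicle.

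Among the ligands, Pdgfa (ENSMUSG00000025856, GRCm38 chr5:138976014-138997370, minus strand) encodes the A chain, a ligand of the alpha receptor. Its level was 35.0, 43.2, 38.5 and 45.9 CPM in vehicle replicates 1 to 4, and 33.7, 27.4, 27.2 and 33.2 CPM in PTH replicates 1 to 4. Every PTH sample lay under every vehicle sample, although the highest PTH value and the lowest vehicle value were close. Pdgfa thus fell from 40.7 ± 4.86 to 30.4 ± 3.58 CPM (SD, n = 4 per group), a change of -25.2%. The log2 fold change was -0.42 (SE 0.104, 95% CI -0.65 to -0.19, edgeR adjusted p = 0.00577), and the exact permutation p was 0.0286. An antisense gene, 6330403L08Rik, shares 813 of the 3119 exonic bases of Pdgfa (26.1%) on the other strand. Its level also fell, from 20.8 to 10.7 CPM (log2 fold change -0.96, edgeR adjusted p = 4.45e-06). The strand setting of the counting is not given in the sources used here, so reads of this shared stretch cannot be told apart. In CPM the antisense fall was near in size to that of Pdgfa, from 40.7 to 30.4. Both the level and the fall of Pdgfa are therefore uncertain to the extent that antisense reads were counted with it.

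Pdgfc (ENSMUSG00000028019, chr3:81036416-81214040, plus strand) encodes a CUB-domain ligand of the alpha receptor. It was measured at 40.6, 43.1, 43.6 and 46.1 CPM in vehicle replicates 1 to 4 and at 32.3, 27.2, 31.9 and 37.1 CPM in PTH replicates 1 to 4. The groups did not overlap, and the vehicle samples were the tighter group. The mean fell from 43.4 ± 2.26 to 32.1 ± 4.06 CPM (SD, n = 4 per group), a change of -25.9%. Its log2 fold change of -0.43 (SE 0.0904, 95% CI -0.63 to -0.24, edgeR adjusted p = 0.00197, exact permutation p = 0.0286) was close to that of Pdgfa. An antisense gene at the locus, Gm16000, had at most 1 count in any sample.

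Pdgfd (ENSMUSG00000032006, chr9:6168584-6378850, plus strand) encodes the other CUB-domain ligand, which binds the beta receptor. It stood at 48.3, 44.3, 42.2 and 39.5 CPM in vehicle replicates 1 to 4 and at 45.7, 38.0, 44.1 and 44.6 CPM in PTH replicates 1 to 4. The samples of the groups were intermingled. The means were 43.6 ± 3.71 and 43.1 ± 3.47 CPM (SD, n = 4 per group), and the log2 fold change of -0.01 had a 95% CI of -0.19 to 0.17 (edgeR adjusted p = 0.902, exact permutation p = 0.857). The log2 fold change was 0.05 without PTH replicate 2 and 0.03 without vehicle replicate 1, so no direction can be given. The interval is narrow enough to leave out changes of the size seen for Pdgfa and Pdgfc.

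Pdgfb (ENSMUSG00000000489, chr15:79995874-80014977, minus strand) encodes the B chain, which binds both receptors. It was the scarcest member, with 32 to 101 counts per sample. The vehicle values were 2.25, 1.47, 0.668 and 1.94 CPM in replicates 1 to 4, and the PTH values were 1.70, 2.32, 2.35 and 2.07 CPM. The groups overlapped, with vehicle replicate 3 the lowest of all 8 samples. The means were 1.58 ± 0.689 and 2.11 ± 0.301 CPM (SD, n = 4 per group), and the log2 fold change of 0.41 had a 95% CI of -0.30 to 1.12 (edgeR adjusted p = 0.332, exact permutation p = 0.2). Without vehicle replicate 3 the log2 fold change was 0.15 (edgeR adjusted p = 0.659), and without vehicle replicate 1 it was 0.62 (edgeR adjusted p = 0.175), so a difference between the groups was not shown in either direction.

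Of the receptors, Pdgfra (ENSMUSG00000029231, chr5:75152292-75198215, plus strand) encodes the alpha receptor. Its level was 241, 229, 234 and 217 CPM in vehicle replicates 1 to 4 and 271, 248, 248 and 253 CPM in PTH replicates 1 to 4. Every PTH sample was above every vehicle sample, with PTH replicate 1 the highest. The mean went from 230 ± 9.86 to 255 ± 11.0 CPM (SD, n = 4 per group), a difference of 10.8%, with a log2 fold change of 0.15 (SE 0.0631, 95% CI 0.01 to 0.29). It did not pass the threshold over all genes (unadjusted p = 0.0375, edgeR adjusted p = 0.0753), while the exact permutation test of this gene alone gave its smallest p, 0.0286. The assembled locus also lists the microRNA gene Mir7025, with at most 6 counts in a sample, and the antisense genes Gm42802 and Gm42803 had at most 5 and 7 counts, against at least 8242 counts for Pdgfra.

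Pdgfrb (ENSMUSG00000024620, chr18:61045150-61085061, plus strand) encodes the beta receptor, the receptor of the B and D chains. It was measured at 263, 243, 247 and 207 CPM in vehicle replicates 1 to 4, and at 106, 97.1, 106 and 114 CPM in PTH replicates 1 to 4. The lowest vehicle sample was well above the highest PTH sample, and the 4 PTH samples lay close together. The mean fell from 240 ± 23.9 to 106 ± 7.00 CPM (SD, n = 4 per group), a change of -55.9%, so that vehicle was 2.27-fold the PTH level. The log2 fold change was -1.18 (SE 0.0834, 95% CI -1.36 to -0.998, edgeR adjusted p = 2.67e-07, exact permutation p = 0.0286). Changes at least this large in either direction were seen in 9.50% of the tested genes, and 3.88% were called lower with a log2 fold change of -1 or less, Pdgfrb being the 1 member among them. In bulk RNA, fewer cells of a type and less RNA per cell cannot be told apart.

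**Figure D2:**
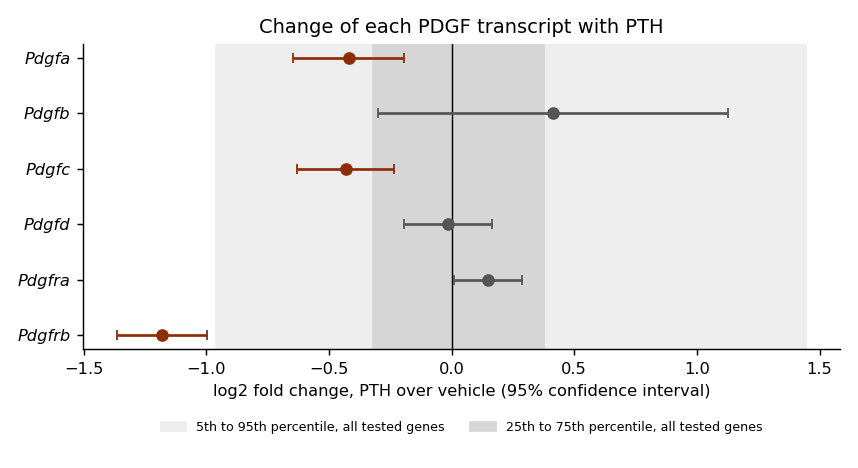
The log2 fold change of each PDGF transcript, PTH over vehicle, as a point with its 95% confidence interval from edgeR, coloured red where the adjusted p was under 0.05 and grey otherwise; the darker and lighter bands span the 25th to 75th and the 5th to 95th percentile of all 16734 tested genes. Pdgfrb, at -1.18, lies below the 5th percentile of -0.96, Pdgfa and Pdgfc lie between the 5th and the 25th percentile (-0.32), and the interval of Pdgfb is the widest of the 6.

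The 2 receptor transcripts were then set against each other within each sample, which does not depend on how libraries are scaled. The ratio of Pdgfra to Pdgfrb in CPM was 0.914, 0.941, 0.947 and 1.05 in vehicle replicates 1 to 4 and 2.56, 2.55, 2.33 and 2.22 in PTH replicates 1 to 4. The ratio, which is not per length, was higher in every PTH sample than in any vehicle sample. The mean log2 ratio was -0.06 ± 0.09 with vehicle and 1.27 ± 0.10 with PTH (SD, n = 4 per group), a difference of 1.32 or 2.50-fold (exact permutation p = 0.0286, the smallest possible).

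For a comparison of levels between genes, CPM was divided by the length of the longest GENCODE M21 transcript in kilobases. On this scale the order in vehicle was Pdgfrb (44.3 ± 4.40 CPM per kb), Pdgfra (33.7 ± 1.44), Pdgfa (19.7 ± 2.36), Pdgfd (13.9 ± 1.19), Pdgfc (12.3 ± 0.642) and Pdgfb (0.537 ± 0.234; SD, n = 4 each). Neighbours in that order did not overlap between samples except Pdgfd and Pdgfc. With PTH the order was Pdgfra (37.3 ± 1.61 CPM per kb), Pdgfrb (19.5 ± 1.29), Pdgfa (14.7 ± 1.74), Pdgfd (13.8 ± 1.11), Pdgfc (9.12 ± 1.15) and Pdgfb (0.716 ± 0.102), and only Pdgfa and Pdgfd overlapped. By their means the receptors changed places, and the ligands kept theirs. Pdgfrb made up 56.7 ± 1.50% of the receptor transcripts per length in vehicle and 34.3 ± 1.60% with PTH (SD, n = 4 per group).

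With the union of all annotated exons as the length, an alternative added after the data had been seen, these shares were 65.5% and 43.2%. Pdgfrb stayed above Pdgfra in vehicle and below it with PTH, but Pdgfd then stood above Pdgfa in both groups (13.8 against 13.0 CPM per kb in vehicle, where their samples overlapped, and 13.7 against 9.74 with PTH, where they did not). Summed over the family on the longest-transcript scale, the receptors came to 78.0 ± 5.83 CPM per kb in vehicle and 56.9 ± 2.25 with PTH, and the ligands to 46.5 ± 2.06 and 38.4 ± 3.52 (SD, n = 4 per group). Within the ligands, Pdgfd took 30.0% of the sum in vehicle and 36.0% with PTH, Pdgfa 42.3% and 38.4%, Pdgfc 26.5% and 23.7%, and Pdgfb 1.15% and 1.89%.

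**Figure D3:**
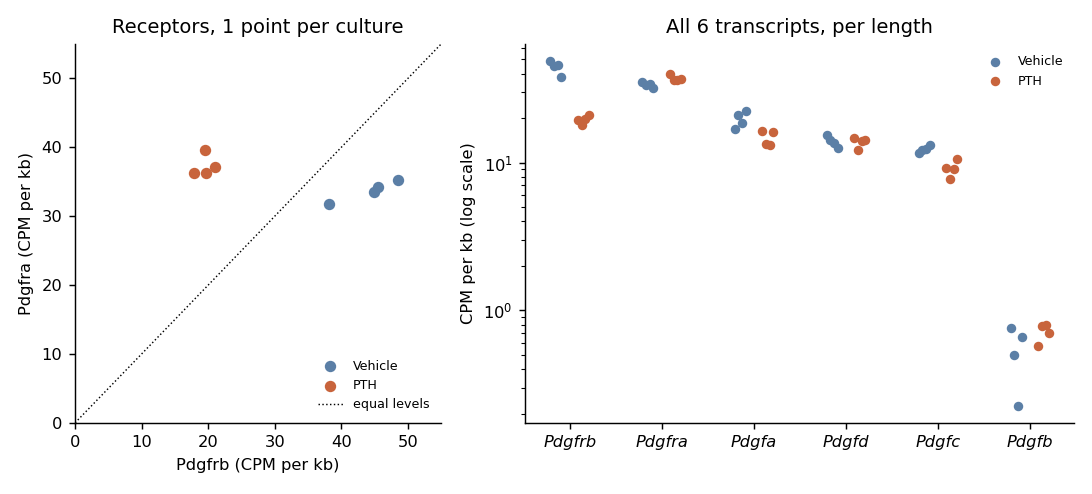
Left, Pdgfra against Pdgfrb in CPM per kb of the longest transcript, 1 point per sample, with a dotted line at equal levels; right, the 6 members on a logarithmic axis in the same unit. The vehicle samples (blue) lie on the Pdgfrb side of the line and the PTH samples (orange) on the Pdgfra side, and Pdgfb lies under 1 CPM per kb in all 8 samples.

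Genes that act around the PDGF receptors were described in 6 lists, which were put together with earlier results of these data known. Of 68 listed genes 66 were tested, 24 rose and 16 fell with PTH, so 60.6% passed the threshold against 45.8% of all tested genes, whose median log2 fold change was -0.00081. No test of the lists was made, so these shares are descriptions.

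Of 7 proteases that process PDGF chains, 3 rose, 1 fell and 3 did not pass, with a median log2 fold change of 0.08. Plau, the urokinase plasminogen activator that can release the active domain of PDGF-D, rose from 45.9 ± 5.20 to 97.0 ± 3.78 CPM (log2 fold change 1.08, edgeR adjusted p = 4.64e-07). Plat, the tissue plasminogen activator that activates PDGF-C, fell from 16.6 ± 0.861 to 12.4 ± 2.94 CPM (log2 fold change -0.42, edgeR adjusted p = 0.0335), with overlapping groups. The call of Plat was lost without PTH replicate 2 or 3 or vehicle replicate 1, 2 or 3, each left out alone, when 0 proteases were lower. The rise of the convertase genes Pcsk5 and Pcsk7, named here after their values were seen, was small (log2 fold changes 0.25 and 0.24), and only 1 protease was higher without PTH replicate 4 or vehicle replicate 1 or 2. Of the 3 genes for PDGF-binding proteins and co-receptors, both Lrp1, an endocytic receptor that associates with the beta receptor, and Nrp1, a co-receptor for several growth factors, rose (log2 fold changes 0.63 and 0.58, edgeR adjusted p = 3.61e-04 and 1.09e-04). The matrix protein gene Sparc, named after its value was seen, was at 16751 and 16553 CPM.

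The 33 signal transducers moved in both directions: 8 rose, 11 fell and 14 did not pass, and the median log2 fold change was -0.05. Among the transducers, the largest fall was that of Pik3r1, the regulatory subunit through which phosphatidylinositol 3-kinase docks on both receptors, from 151 ± 8.75 to 72.9 ± 2.35 CPM (log2 fold change -1.05, edgeR adjusted p = 5.95e-08). Picked after their values were seen, Gab1 (log2 fold change -0.82), Pik3r2 (-0.57), Plcg1 (-0.34) and Nck2 (-0.98) also fell. Among those that did not pass were Nck1 (0.18), Grb2 (-0.07), Crk (0.08) and Crkl (0.05). Braf (0.74), Map2k1 (0.63) and Shc1 (0.43) of the Ras-MAP kinase cascade, picked in the same way, rose. In the same cascade Mapk3 fell, by 0.21 on the log2 scale, so its members did not move one way.

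Of the 9 inhibitors of PDGF receptor signalling, 3 rose, 2 fell and 4 did not pass, with a median of 0.17. Ptpn1, a tyrosine phosphatase that dephosphorylates PDGF receptors, rose from 41.0 ± 5.33 to 94.8 ± 14.4 CPM (log2 fold change 1.21, edgeR adjusted p = 4.75e-06). Without vehicle replicate 4 the number of inhibitors that rose was 5.

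Of the 9 early response genes that PDGF is known to induce in fibroblasts, 8 rose, 0 fell, and the median log2 fold change was 2.35. Many other stimuli, PTH among them, induce these genes, so their level is no readout of PDGF receptor activity. The chemokine gene Cxcl1 rose most, from 0.726 ± 0.361 to 143 ± 31.9 CPM (log2 fold change 7.62, edgeR adjusted p = 5.05e-10), and the transcription factor gene Egr1 least, from 51.5 ± 5.80 to 65.2 ± 3.24 CPM (log2 fold change 0.34, edgeR adjusted p = 0.00585). Fosb, named as the only gene of the list that did not pass, at 5.38 ± 0.539 and 6.83 ± 1.07 CPM, had an edgeR adjusted p = 0.0716. Among the related class III receptors and their ligands, 5 of 7 genes were tested, Kit and Flt3 being too low, and 2 fell. These were Csf1 and Il34, both ligands of the CSF-1 receptor, with log2 fold changes of -0.48 and -0.39 (edgeR adjusted p = 2.59e-05 and 7.77e-04), near those of Pdgfa and Pdgfc.

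**Figure D4:**
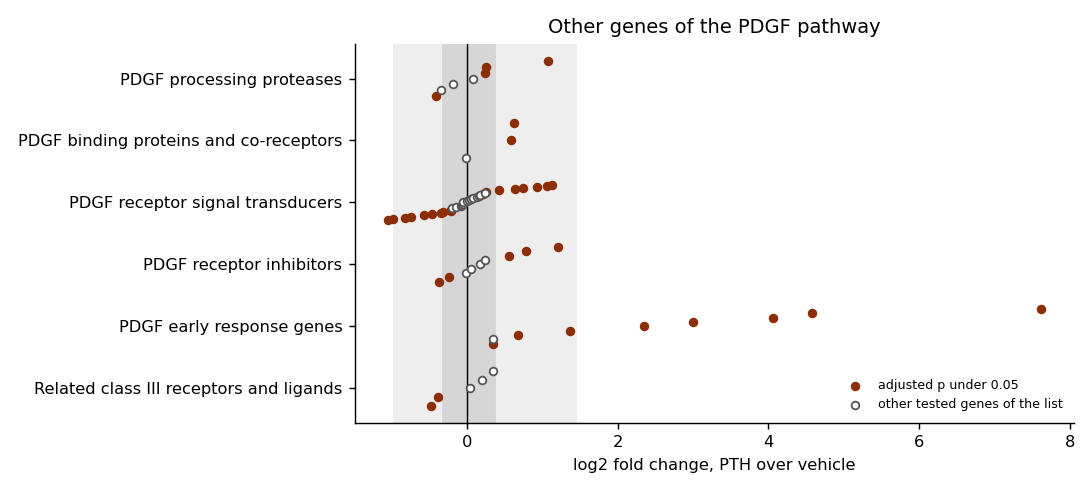
The log2 fold change, PTH over vehicle, of each tested gene of the 6 pathway lists, filled where the edgeR adjusted p was under 0.05 and open otherwise; the darker and lighter bands span the 25th to 75th (-0.32 to 0.38) and the 5th to 95th (-0.96 to 1.44) percentile of all tested genes. The transducers lie on both sides of 0, and 5 early response genes lie at 2.35 or above, up to 7.62.

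Markers of other cells that carry PDGF receptors or make PDGFs were read as lists of summed CPM, and the marker genes named were picked after their values were seen. Of 8 tested mural cell markers, whose cells are rich in the beta receptor, 1 rose (Mcam, from 4.21 to 23.2 CPM, log2 fold change 2.46) and 1 fell (Notch3, log2 fold change -0.37). Their sum, of which Cspg4 and Notch3 were the largest parts, was 127 to 138 CPM in vehicle and 131 to 137 CPM with PTH. This sum joins opposite changes and does not show that each marker held its level. The mean of Notch3 went from 51.4 to 39.8 CPM and that of Cspg4, which did not pass, from 45.6 to 40.3 CPM, against the rise of Mcam. Of the 6 fibroblast progenitor markers 3 rose, Pi16 from 0.755 to 5.88 CPM (log2 fold change 2.96), Thy1 (0.31) and Ly6a (0.18), and Prrx1 fell (-0.34). Their sums, mostly Prrx1 and Thy1, were 1605 to 1747 and 1535 to 1673 CPM. The ranges of both sums overlapped between the groups. In the progenitor sum too, opposite changes were added, with Prrx1 at means of 971 and 768 CPM and Thy1 at 441 and 545 CPM. Whether the number of these cells changed was not tested. Of the osteoblast markers 0 rose and 2 fell: Sp7 (log2 fold change -1.78) and Runx2 (-0.33), both transcription factors of the lineage, while the sum ranged over 76703 to 87747 CPM in vehicle and 73289 to 106042 CPM with PTH.

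Markers of further cell types, some of which can make the B chain, were read in the same way. The 10 macrophage markers summed to 1033 to 1682 CPM in vehicle and 1619 to 2088 CPM with PTH. Most of this was Lyz2 (means of 914 and 1417 CPM), and 2 markers were higher and 8 did not pass. The endothelial markers summed to 22.5 to 24.4 and 30.0 to 50.0 CPM, mostly Erg (means of 16.8 and 33.5 CPM). Of these, 2 were higher (Kdr and Erg), 1 was lower (Tek) and Emcn was at 0 in all 8 samples. Of 4 tested platelet markers 3 rose (Pf4, Itga2b and Ppbp), against 23.3% of all tested genes. Ppbp was at most 0.757 CPM in any sample, and Gp1bb did not pass (log2 fold change -0.45). The platelet sums were 14.1 to 19.6 and 19.3 to 26.4 CPM. Of 5 tested adipocyte markers 0 passed, with sums of 24.0 to 40.4 and 29.2 to 48.6 CPM. The part of any of these cells in the PDGF values was not tested.

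Across the 8 samples, the genes whose log2 CPM followed each member most closely were named as a description. The samples fall into the treatment groups, and Pearson's r counts the difference between them as well as the spread within each. For Pdgfrb they were Tfap4 (r = 0.999), Dact1 (0.998) and Pdp1 (0.997), and 850 of 14056 genes (6.05%) had r over 0.95 with it. For Pdgfa they were Mcm6 (0.984), Gm5884 (0.983) and Usp15 (0.978), for Pdgfc Slc38a7 (0.992), Nup107 (0.990) and Pak4 (0.989), and for Pdgfra Adra1b (0.987), Plxna2 (0.978) and Tspan18 (0.976). Pdgfd, whose groups overlapped, was followed by Fuca2 (0.966), Acp5 (0.959) and Gm2a (0.936), and Pdgfb by Gm17167 (0.948), Rps19bp1 (0.940) and C920009B18Rik (0.938). Among the members themselves, Pdgfa and Pdgfc had r = 0.907 and Pdgfc and Pdgfrb r = 0.878, whereas Pdgfra ran against Pdgfrb (r = -0.726).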

How the data were processed

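Polyadenylated RNA of 4 PTH and 4 vehicle osteoblast samples was sequenced, and groups were taken from the sample titles. Alignment by the authors was to GRCm38 (HISAT2), followed by transcript assembly (StringTie2), and the gene counts they deposited came unnormalized from the companion script of StringTie2; the annotation, strand and read-length settings are not given in the sources used here. That script assumes reads of 75 bases unless told otherwise, and these were of 150 bases, so counts may be scaled by a common factor. The processing notes of the submitters also name DESeq2.

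The table held 47706 rows, and 2 without a symbol, at most 0.00526% of a library, were left out. edgeR 4.0.16 (R 4.3.3) was run on all 8 samples with TMM scaling, filterByExpr (minimum count 10, minimum total 15), the quasi-likelihood F-test and Benjamini-Hochberg adjustment over all 16734 tested genes, with a threshold of 0.05. CPM used TMM library sizes. Exact two-sided permutation tests over 70 assignments used log2(CPM + 0.1), with SciPy 1.17.1. DESeq2 1.42.0, its size factors, no filter, counts halved or summed by symbol, a replicate term, a pseudocount of 1 CPM and each sample left out were alternatives. In a test on simulated data of the same 16734 genes, edgeR recovered 79 of 100 genes changed by 1 and 91 of 100 changed by 2 on the log2 scale, with 5 false calls, and DESeq2 recovered 83 and 93 with 25 false calls. Only 200 genes were changed there, whereas 45.8% of genes were called in the data. These numbers therefore check the code and do not give the error rates of the real fit.

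The family and the gene lists were chosen with earlier results of these data known. The genes named by rule were the members, the called gene with the largest and with the smallest log2 fold change of each pathway list (some are not reported here), Tnfsf11 and Pth1r as checks of the labels, and the 3 genes of at least 1 CPM that correlated best with each member. Other genes, markers included, were named after their values were seen.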

Additional observations from a re-analysis of the deposited data

Results flagged for a closer look

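Of the 42 groups of 4 samples checked for a value standing apart from the rest, among them both groups of every PDGF member and of the ratio of Pdgfra to Pdgfrb, 1 did so. This was Tnfsf11, used to check the labels: PTH replicate 1 was at 157 CPM and the other PTH samples at 115 to 120 CPM. The gap to the nearest sample was 0.882 of the range of the group, above Dixon's 95% critical value for 4 samples. Chance alone flags about 5% of groups. None of the 12 groups of PDGF transcripts held such a value.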

How the results depend on the processing

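Under each of the 14 edgeR and DESeq2 alternatives, Pdgfa, Pdgfc and Pdgfrb stayed lower with PTH and past the threshold, and Pdgfb, Pdgfd and Pdgfra did not pass it. The log2 fold changes ranged over -0.49 to -0.36 for Pdgfa (adjusted p 0.00191 to 0.0241), -0.51 to -0.35 for Pdgfc (2.49e-04 to 0.00932), -1.25 to -1.13 for Pdgfrb (7.55e-37 to 1.28e-05), 0.11 to 0.17 for Pdgfra (0.0508 to 0.250), 0.15 to 0.62 for Pdgfb and -0.06 to 0.05 for Pdgfd. Samples with the same replicate number did not deviate together (correlations of -0.04 to 0.03, none best with its own number). No shared effect of the number was thus seen, but whether samples were paired by isolation is not given and cannot be settled this way. A replicate block gave 3570 genes higher and 3432 lower and the same 3 members lower. Pdgfa was then at -0.42, Pdgfc at -0.44 and Pdgfrb at -1.18, with Pdgfra at 0.15. When a sample was left out, the exact permutation tests could not reach the threshold, since 3 samples against 4 allow no two-sided p below 0.0571. The differences in mean log2 CPM then ranged over -0.488 to -0.359 for Pdgfa, -0.511 to -0.362 for Pdgfc, 0.118 to 0.169 for Pdgfra, -1.25 to -1.13 for Pdgfrb, and 1.30 to 1.37 for the log2 ratio of Pdgfra to Pdgfrb. Of 408 alternatives over 33 results, 350 were classed as the same. For a fold change, a difference or the ratio, this meant the same direction and side of the threshold. For a count it meant only a value equal to the main count or within a fixed ratio of it. The 3411 genes higher without vehicle replicate 2, against 3907, were thus classed as the same. These permutation tests made up 40, and 14 moved a list count or the receptor share per length. The last 4 turned the sign of Pdgfd, which passed no test. Without PTH replicate 2 and without vehicle replicate 1 it was 0.0511 and 0.0343 in edgeR and 0.0442 and 0.0356 in the permutation test, and over all samples left out in turn it ranged from -0.0606 to 0.0511 and from -0.0611 to 0.0442. Pdgfb, with 32 to 101 counts, gave 0.42 (adjusted p 0.290) with counts halved and 0.15 without vehicle replicate 3.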
